A study of Mus musculus with 2 samples.

Results

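The BCL2 family genes decide at the mitochondrial outer membrane whether a cell dies, and 10 of them were followed in the liver of mouse embryos: the guardians Bcl2 and Mcl1, the pore formers Bax, Bak1 and Bok, and the BH3-only triggers Bcl2l11, Bid, Bad, Bbc3 and Pmaip1. The genes were taken by name from a list of the family, with no measured value in the rule, and all 10 were found among the 43346 mouse gene identifiers of the deposited tables. The tissue was liver of B6NCrl embryos at embryonic day 12.5, both sexes mixed, and there was 1 group with no treatment, allele or other stage to compare it with. Replicate 1 was a library from a pool of 120 embryos and replicate 2 a library from a pool of 88 embryos, each started from 10 ng of total RNA with spike-ins added.

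In mitochondrial apoptosis, Bax and Bak1 proteins join into pores that let cytochrome c out of the intermembrane space. Bcl2, Mcl1 and their relatives hold the pore formers in check, and BH3-only proteins bind in a groove of the guardians or act on the pore formers directly. The fetal liver is at this stage the main site of red cell formation as well as a growing gland, and erythroid survival is known to rest on Mcl1 and Bcl2l1 among the guardians. Much of the control of these proteins, such as the rapid turnover of MCL1 and the cleavage of BID by caspase 8, takes place after the RNA is made and is not seen in RNA levels.

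The feature that names the family is the BH3 helix, a short stretch with a leucine, 3 free residues, then a small residue and an aspartate. Its coding sequence is shown for the members that follow because the transcript models described later differ in whether they carry it. The 18 bases of the core are in capitals, with the neighbouring codons in lower case, read from the mm10 genome along the coding strand of the model named.
Bcl2-201, chr1:106712569-106712616, minus strand: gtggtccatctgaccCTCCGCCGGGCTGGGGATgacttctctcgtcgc
Mcl1-201, chr3:95659421-95659468, plus strand: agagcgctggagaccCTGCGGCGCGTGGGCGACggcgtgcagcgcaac
Bax-201, chr7:45465991-45466038, minus strand: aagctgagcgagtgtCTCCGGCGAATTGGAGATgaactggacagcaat
Bak1-202, chr17:27022525-27022572, minus strand: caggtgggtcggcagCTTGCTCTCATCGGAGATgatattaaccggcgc
Bok-201, chr1:93686642-93686669 joined to chr1:93689157-93689176, plus strand: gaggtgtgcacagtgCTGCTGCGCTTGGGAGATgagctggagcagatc
Bcl2l11-205, chr2:128147135-128147182, plus strand: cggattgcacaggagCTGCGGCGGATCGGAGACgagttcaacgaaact
Bid-201, chr6:120897283-120897330, minus strand: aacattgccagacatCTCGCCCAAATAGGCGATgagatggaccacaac
Bad-202, chr19:6950777-6950824, plus strand: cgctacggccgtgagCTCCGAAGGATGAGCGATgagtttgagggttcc
Bbc3-201, chr7:16313758-16313805, plus strand: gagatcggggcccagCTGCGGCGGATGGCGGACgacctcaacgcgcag

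All of these cores lie in coding exons, and that of Bok is split between 2 exons. Of the pairs of cores shown, Bcl2l11 and Bbc3 were most alike, with 15 of 18 bases the same, and the pairs Bcl2 and Bak1, Bak1 and Bad, Bak1 and Bbc3, and Bid and Bbc3 shared only 8. The core was found in the leading transcript model of all 10 members, with 2 matches in Pmaip1, the gene of NOXA. The pattern is loose: 33.2% of 22301 coding genes hold a match somewhere in their longest protein, and 13% hold one with glycine before the aspartate, so a match alone names no family member.

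All 10 members were detected, meaning at least 1 TPM (the deposited abundance scaled by transcript length and library total) in both libraries, while 54.5% of protein-coding genes were. The members gave 13919 and 12988 estimated reads in libraries of 37.6 M and 34.7 M estimated reads. Their levels ran from Bax at the top to Bcl2 at the bottom, and 4 of the 10, Bax, Mcl1, Bad and Bid, lay above the median of detected genes, 12.7 TPM. The median of the members was 7.91 TPM. Values below are mean TPM ± SD over the 2 libraries (n = 2), which were made from separate pools of embryos, and no test was possible with 1 group. The tissue is a mixture, so fewer cells expressing a gene and less RNA per cell cannot be told apart.

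**Figure D1:**
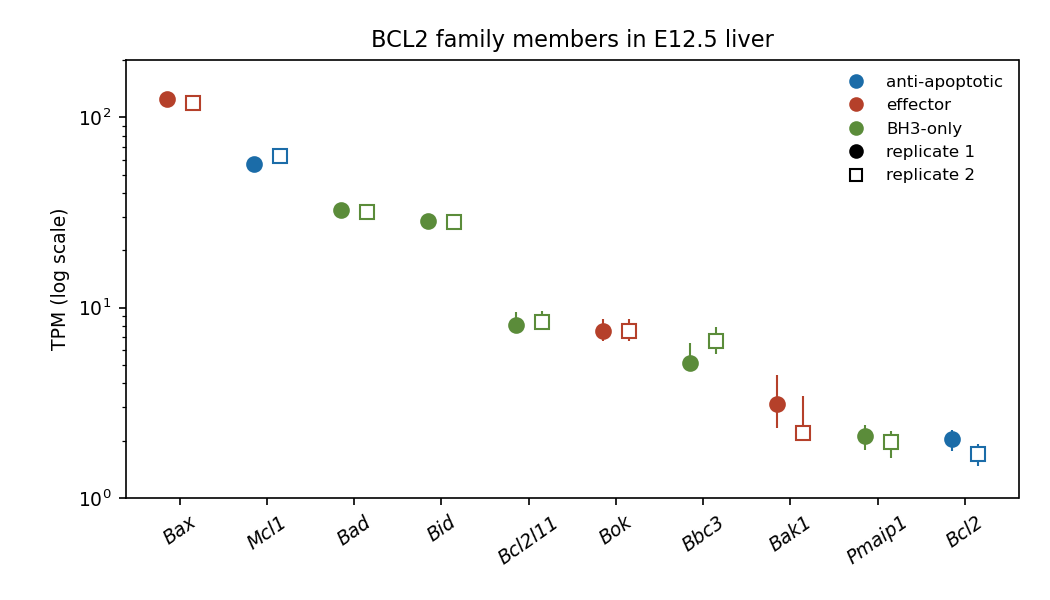
TPM of the 10 members on a log axis in replicate 1 (filled circles) and replicate 2 (open squares), ordered by their mean and coloured by role; vertical lines span the bounds the authors deposited for each TPM. Bax lies highest at 125 and 118 TPM, and Pmaip1 and Bcl2 lie lowest and overlap.

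Mcl1 was the higher of the 2 guardians in both libraries. Mcl1, a short-lived guardian of blood progenitors and hepatocytes, had 56.8 and 62.7 TPM in replicates 1 and 2 (59.7 ± 4.16, n = 2), above 83.9% of detected genes. Bcl2, the founding member of the family, had 2.05 and 1.71 TPM (1.88 ± 0.24, n = 2), above 8.94% of them. The libraries of the 2 genes did not overlap, and the ratio of Mcl1 to Bcl2 TPM was 27.7 in replicate 1 and 36.7 in replicate 2. In estimated reads, which are not scaled by length, it was 17.8 and 21.2. Mcl1 (ENSMUSG00000038612.12) lies on chr3:95658788-95663176, plus strand, and Bcl2 (ENSMUSG00000057329.7) on chr1:106538178-106714274, minus strand. The antisense gene D630008O14Rik overlaps Bcl2 by 33103 bases and had 0 reads in both libraries, and Gm37053, within Bcl2 on its own strand, had 4 and 5.

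A further guardian outside the 10, Bcl2l1 (the gene of BCL-XL), reached 110 and 118 TPM (114 ± 5.78, n = 2). That was 1.94 times Mcl1 in replicate 1 and 1.89 times in replicate 2. The other 5 guardian genes were below detection: Bcl2l2 had 1.04 and 0.71 TPM, Bcl2l10 had 0.03 and 0 TPM, and the near-identical copies Bcl2a1a, Bcl2a1b and Bcl2a1d, among which reads can be split, had means between 0.14 and 0.94 TPM.

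Among the pore formers, Bax stood far above Bak1 and Bok. Bax had 125 and 118 TPM in replicates 1 and 2 (122 ± 4.75, n = 2), above 91.9% of detected genes. Bok, a pore former that acts largely outside the control of the guardians, had 7.54 and 7.55 TPM. Bak1, whose protein sits in the outer membrane even in healthy cells, had 3.12 and 2.20 TPM (2.66 ± 0.65, n = 2). The 3 genes kept the order Bax, Bok, Bak1 in each library without overlap. The ratio of Bax to Bak1 was 40.1 and 53.8 in TPM, and 20.4 and 20.1 in estimated reads.

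Bax (ENSMUSG00000003873.10, chr7:45461697-45466898, minus strand) was quantified with 1 transcript model, while M21 lists 6 for the gene. It ends 1812 bases from the ferritin light chain gene Ftl1 on the same strand, which had 7175 and 6747 TPM, and it overlaps the M21 gene Gm45808 by 915 bases, which was not quantified. The part of this neighbour in the Bax value was not tested. Bak1 (ENSMUSG00000057789.9) lies on chr17:27019810-27029009, minus strand, and its whole length of 9200 bases is overlapped from the other strand by Ggnbp1, which had 106 and 91.4 estimated reads against 149 and 132 for Bak1. The sources give no strandedness, so reads of the 2 genes may not be told apart where their exons meet. Bok (ENSMUSG00000026278.10) lies on chr1:93685660-93695764, plus strand.

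The BH3-only genes fell into 2 levels, Bad and Bid between 28.1 and 32.5 TPM and the others at 8.38 TPM or less. Bad, which binds BCL2 and BCL-XL and is held in the cytosol when growth factor kinases phosphorylate it, had 32.5 and 31.7 TPM (32.1 ± 0.55, n = 2). Bid, which links death receptors to mitochondria, had 28.6 and 28.1 TPM (28.4 ± 0.34, n = 2). The libraries of the 2 genes did not overlap. The bounds the authors deposited were apart in replicate 1, at 30.2 to 34.5 TPM for Bad and 27.0 to 29.8 TPM for Bid, and met in replicate 2, at 29.2 to 33.7 TPM and 26.5 to 29.3 TPM.

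Bcl2l11 encodes BIM, the BH3-only protein best known for cytokine withdrawal in blood cells. It had 8.15 and 8.38 TPM (8.27 ± 0.16, n = 2). Bbc3 and Pmaip1 encode PUMA and NOXA, both classical targets of p53. Bbc3 had 5.11 and 6.66 TPM (5.89 ± 1.1, n = 2), the widest relative spread of the BH3-only genes. Pmaip1 had 2.12 and 1.97 TPM (2.05 ± 0.11, n = 2), so its libraries overlapped with those of Bcl2 and with no other member's. Bad exceeded Bcl2l11 by 3.98 and 3.78 times in TPM, while their estimated reads were nearly equal, with ratios of 1.00 and 0.96, since the Bcl2l11 models are longer.

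In the genome, Bad (ENSMUSG00000024959.9) lies on chr19:6941861-6951899, plus strand, and shares 620 bases with Gpr137 on the other strand, which had 290 and 285 estimated reads. Bid (ENSMUSG00000004446.8) lies on chr6:120891930-120916853, minus strand, and shares 913 bases with Bcl2l13 on the other strand, which had 6368 and 6151 estimated reads against 1854 and 1712 for Bid. Bcl2l11 (ENSMUSG00000027381.12) lies on chr2:128126038-128162547 and Bbc3 (ENSMUSG00000002083.8) on chr7:16308393-16318205, both on the plus strand, and neither overlaps another gene. The Pmaip1 gene (ENSMUSG00000024521.7) is also free of overlaps.

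From the top, the order of the means was Bax, Mcl1, Bad, Bid, Bcl2l11, Bok, Bbc3, Bak1, Pmaip1 and Bcl2. Each member's library values lay above those of the next member, except that Pmaip1 and Bcl2 overlapped. By the deposited bounds, Bcl2l11 and Bok, Bak1 and Pmaip1, and Pmaip1 and Bcl2 overlapped in both libraries. Bad and Bid, and Bok and Bbc3, were apart in replicate 1 and overlapped in replicate 2.

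Summed over the members in TPM, the pore formers held the largest share. Estimated reads, which are not scaled by length, ranked Bax and Mcl1 the other way. Bax had 2.20 and 1.89 times the TPM of Mcl1 in replicates 1 and 2, but 0.51 and 0.46 times its estimated reads. The 10 genes added to 271 and 269 TPM in the 2 libraries. The pore formers held 50.1% and 47.6% of it (48.8 ± 1.78%, n = 2), the BH3-only genes 28.2% and 28.5% (28.4 ± 0.22%, n = 2), and Bcl2 with Mcl1 21.7% and 23.9% (22.8 ± 1.55%, n = 2). Bax alone held 46.1% and 43.9% of the sum. These shares rest on which genes are counted: with Bcl2l1 among the guardians, an alternative chosen after seeing the data, the guardians held 45.7% and the pore formers 34.3%. Without Bax, also chosen after seeing the data, the pore formers held 6.88%, the BH3-only genes 51.6% and the guardians 41.5%.

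The transcript tables held 34 models of the members, of which 27 had reads in both libraries, 4 in 1 library and 3 in neither. The model with the most TPM was the same in both libraries for all 10 members, and Bax and Pmaip1 had 1 model each. The core could be looked for in the 24 models with a coding sequence from their start codon in M21: 21 held it and Bcl2l11-202, Bid-203 and Bbc3-202 did not. The lengths of 5 of the 34 models differ between M21 and the tables, among them Mcl1-201, Bax-201 and Pmaip1-201.

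**Figure D2:**
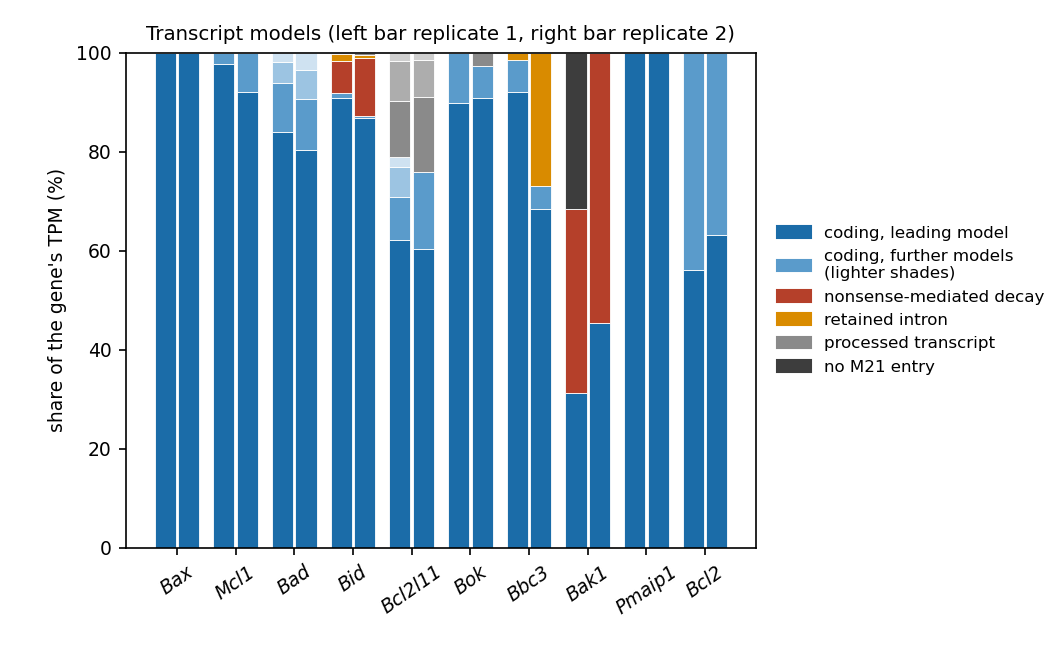
Share of each member's TPM (%) held by its transcript models in replicate 1 (left bar) and replicate 2 (right bar), coloured by transcript type. Most members are led by 1 coding model, while Bak1, Bcl2l11 and Bcl2 are divided among several, and the retained-intron model of Bbc3 is wide in replicate 2 (26.9%) and thin in replicate 1 (1.37%).

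Bcl2 was divided between 2 coding models. The model Bcl2-201, of 236 residues, held 56.1% of the gene's TPM in replicate 1 and 63.2% in replicate 2 (59.6 ± 4.99%, n = 2). Bcl2-202 held 43.9% and 36.8% and reads on past the first coding exon. Its protein of 199 residues therefore keeps the BH3 core and lacks what the last exon encodes, which in BCL2 includes the membrane anchor. In estimated reads, the shorter model Bcl2-202 held 23.2% and 18.4%. The last bases the models share are in lower case and those that differ in capitals.
Bcl2-201, chr1:106712305-106712334 joined to chr1:106543369-106543398, minus strand: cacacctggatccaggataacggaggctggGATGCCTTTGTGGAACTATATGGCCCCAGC
Bcl2-202, chr1:106712284-106712334, minus strand: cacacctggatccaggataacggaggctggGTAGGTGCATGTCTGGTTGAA

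Mcl1 was led by the full-length model Mcl1-201, with 97.7% and 92.1% of its TPM (94.9 ± 3.98%, n = 2). Mcl1-202, in which 138 bases within the first coding exon are spliced out and which keeps the core in 285 residues, held 2.31% in replicate 1 and 7.93% in replicate 2, from 31.2 and 110 estimated reads. Its values were 1.31 and 4.97 TPM, and the deposited bounds of both, 0.27 to 3.02 and 2.60 to 7.77 TPM, overlapped. The sequences at the removed stretch are shown, with the bases after it in capitals.
Mcl1-201, chr3:95658879-95658938, plus strand: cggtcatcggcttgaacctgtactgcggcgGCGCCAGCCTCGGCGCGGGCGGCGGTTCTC
Mcl1-202, chr3:95658879-95658908 joined to chr3:95659047-95659076, plus strand: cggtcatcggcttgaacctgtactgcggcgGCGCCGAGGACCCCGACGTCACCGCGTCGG

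Bcl2l11 had the most models, 8, and on average the lowest share of TPM in models with the core, at 70.2% and 60.3% in the 2 libraries (65.3 ± 6.99%, n = 2). Bcl2l11-205, of 196 residues, held 62.1% and 60.3% (61.2 ± 1.27%, n = 2). Bcl2l11-202, which joins the same exon to a nearer last exon after 622 bases of intron and ends after 91 residues without the core, held 8.70% and 15.7%, from 49.3 and 84.1 estimated reads. Its values of 0.71 and 1.31 TPM had deposited bounds of 0.50 to 0.93 and 0.98 to 1.59 TPM, which did not overlap. Each pair of bounds belongs to a single library and does not cover the spread between pools. The share of all transcripts with bounds apart was not computed, so no shift between the pools is read from this. The 3 models typed as processed transcripts, which have no coding sequence, held 21.1% and 24.0% together. The shared exon end is in lower case, and what follows it is in capitals.
Bcl2l11-205, chr2:128128985-128129014 joined to chr2:128147085-128147114, plus strand: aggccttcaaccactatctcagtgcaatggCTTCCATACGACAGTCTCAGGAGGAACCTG
Bcl2l11-202, chr2:128128985-128129014 joined to chr2:128129637-128129666, plus strand: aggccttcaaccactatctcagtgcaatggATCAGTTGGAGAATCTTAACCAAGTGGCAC

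By TPM, Bak1 was the member whose leading model is not typed as coding, though that lead lies within the deposited bounds. Bak1-201, typed as a target of nonsense-mediated decay and with an open reading frame of 151 residues that holds the core, had 37.3% and 54.5% of the gene's TPM. The coding model Bak1-202, of 209 residues, had 31.2% and 45.5%. In TPM the 2 models stayed level between the libraries, at 1.16 and 1.2 for Bak1-201 and 0.97 and 1.00 for Bak1-202. Their deposited bounds overlapped in each library. They were 0.49 to 1.71 and 0.45 to 1.73 TPM for Bak1-201, and 0.53 to 1.51 and 0.51 to 1.57 TPM for Bak1-202. In estimated reads Bak1-202 was slightly the higher, with 70.2 against 68.7 in replicate 1 and 66.5 against 65.5 in replicate 2. A model of 416 bases without an M21 entry was at 0.98 TPM in replicate 1 and listed at 0 in replicate 2, from 9.77 and 0 estimated reads. Its deposited bounds overlapped, at 0.06 to 2.15 TPM in replicate 1 and up to 0.99 TPM in replicate 2, and its posterior mean shares were 32.7% and 13.9%. Counting coding models only, Bak1 came to 0.985 TPM on average and the ratio of Bax to Bak1 to 124.

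Bbc3 was led by Bbc3-201, with 92.0% of the TPM in replicate 1 and 68.5% in replicate 2 (80.2 ± 16.6%, n = 2), and the level of this model was 4.71 and 4.56 TPM. The retained-intron model Bbc3-203 was at 0.07 and 1.79 TPM in replicates 1 and 2, from 1.69 and 40.7 estimated reads. The deposited bounds overlapped, reaching 1.5 TPM in replicate 1 and starting at 0.70 TPM in replicate 2, and the posterior mean shares were nearer each other, 11.9% and 28.0%. Bbc3-203 reads from the intron into the third exon of Bbc3-201 without a splice, as shown with the intron in capitals.
Bbc3-203, chr7:16313597-16313656, plus strand: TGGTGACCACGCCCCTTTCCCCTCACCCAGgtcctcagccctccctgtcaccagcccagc

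The remaining members were led by 1 coding model. Bid-201 held 90.9% and 86.8% of Bid TPM, and Bid-204, typed as a target of nonsense-mediated decay with a reading frame of the same 195 residues, held 6.44% and 11.7%. Bad-202 held 84.0% and 80.5%, followed by Bad-201 at 9.82% and 10.2% and Bad-205 at 4.25% and 5.97%. Bok-201 held 89.9% and 90.9%, with Bok-203 at 10.1% and 6.48%.

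Between the pools, 2 of 10 members differed by at least 1.2-fold in TPM, with 0.1 added to both values, against 12.1% of the 12841 detected genes. These were Bak1, 1.4 times higher in replicate 1, and Bbc3, 1.3 times higher in replicate 2. In estimated reads scaled to the library total (CPM), 0 of 10 members passed 1.2-fold, against 10.5% of detected genes. The same Bak1 and Bbc3 were the 2 of 10 members whose effective length differed by at least 1.1-fold, against 7.93% of detected genes. Effective length is the length that scales TPM, weighted by the use of the models. It is shorter than the models themselves, with 770 against 869 bases for the only model of Bax. The effective length was 1515 bases in replicate 1 and 2063 bases in replicate 2 for Bak1, and 1615 and 1403 bases for Bbc3.

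**Figure D3:**
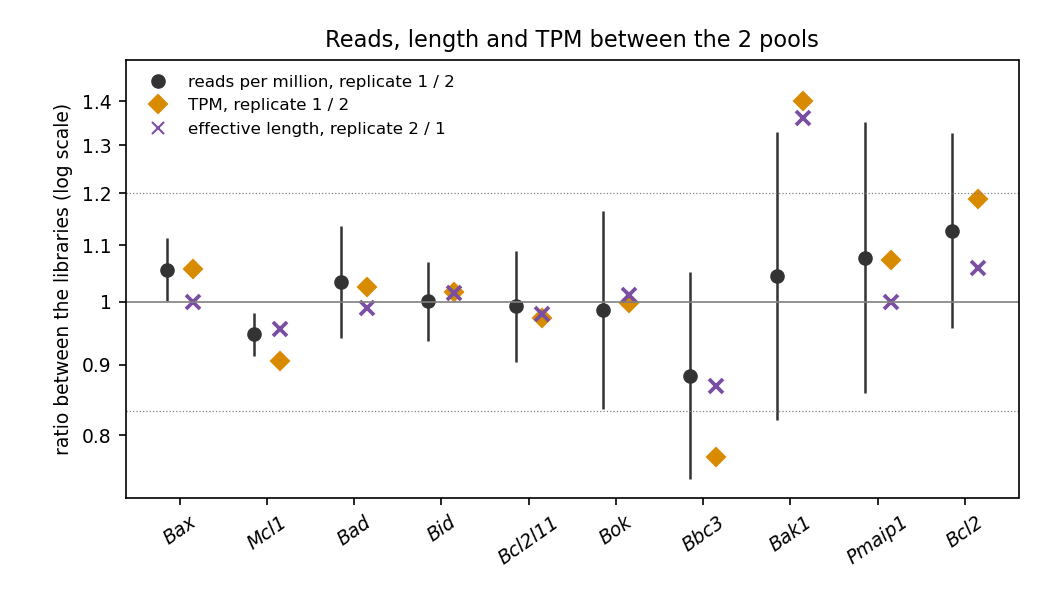
Ratio between the libraries for each member on a log axis: CPM of replicate 1 over replicate 2 with its 95% interval for counting error (circles and lines), TPM of replicate 1 over replicate 2 (diamonds), and effective length of replicate 2 over replicate 1 (crosses). Dotted lines mark 1.2-fold in either direction; the diamonds of Bak1 and Bbc3 alone lie outside them, and their crosses lie farthest from 1.

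In CPM, the ratio of replicate 1 to replicate 2 was 1.04 for Bak1 (exact 95% interval 0.82 to 1.33) and 0.88 for Bbc3 (0.74 to 1.05). The interval left out 1 for 2 of 10 members, against 24.8% of detected genes: Mcl1, with a ratio of 0.95 (0.91 to 0.98), and Bax, with 1.06 (1.002 to 1.11). These intervals cover counting error and not the spread between pools. In TPM, 6 members were higher in replicate 1 and 4 in replicate 2. The median size of the members' log2 TPM ratio was 0.09, beside 0.08 for detected genes.

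The other genes of the pathway were taken from a list of 53, of which 42 were detected. Those downstream of the pore were all detected, among them the 7 genes of the apoptosome and caspase group. Apaf1, the scaffold of the apoptosome, had 10.9 and 12.1 TPM, and Casp9, the initiator it activates, 11.8 and 12.6 TPM. The 4 other genes of intermembrane space factors lay between Endog (20.2 ± 0.16 TPM, n = 2), a nuclease, and Htra2 (129 ± 3.40), a protease. By mean, the 5 inhibitor of apoptosis genes ranged from Birc3 (5.86 ± 0.11) to Birc5 (323 ± 2.71), the gene of survivin, which also acts in cell division. In replicate 2, Xiap lay below Birc3, at 5.76 against 5.94 TPM.

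**Figure D4:**
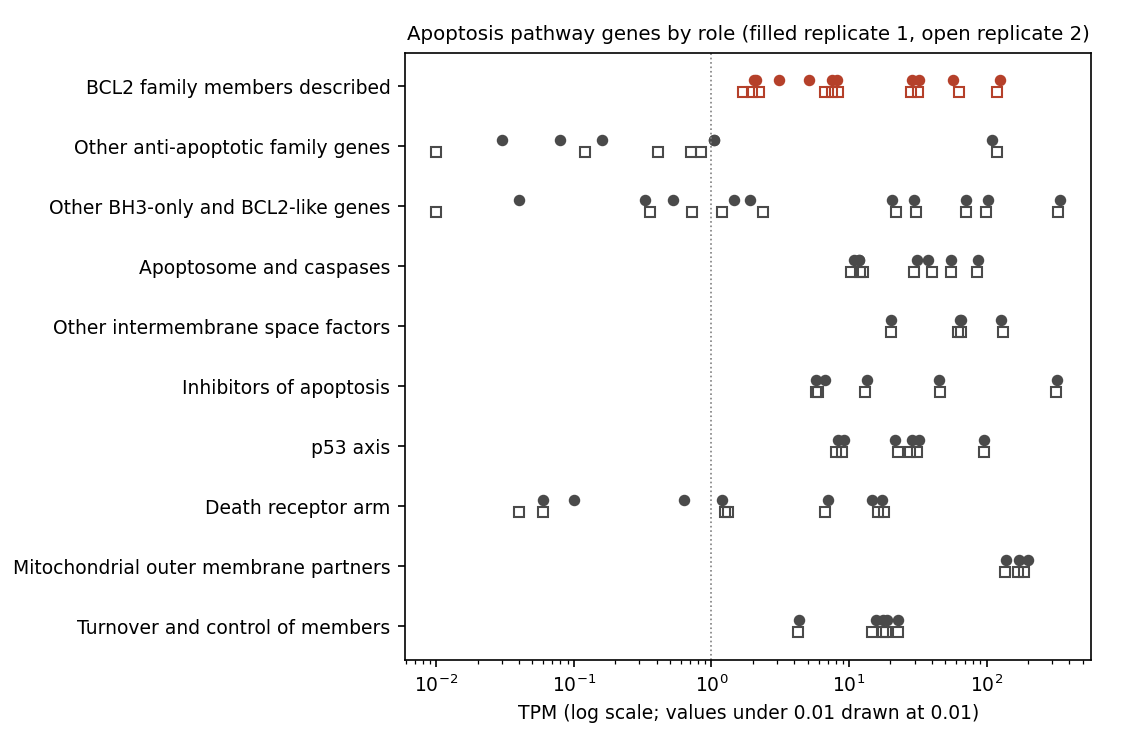
TPM on a log axis of the 10 members (top row, red) and of 53 further genes of the pathway grouped by role, with replicate 1 filled and replicate 2 open; the dotted line marks the detection limit of 1 TPM. The guardian genes other than Bcl2 and Mcl1 lie at 1.04 TPM or less except Bcl2l1, while every gene of the apoptosome, p53 and outer membrane groups lies to its right.

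Upstream of the members, all 6 genes of the p53 axis were detected. Trp53 itself had 95.7 and 96.0 TPM, the highest of the group. Cdkn1a, a target that halts the cell cycle, had the lowest mean, with 8.38 and 8.86 TPM. Sesn2, with 9.26 and 8.07 TPM, lay below Cdkn1a in replicate 2. Of the death receptor arm, 4 of 7 genes were detected, with Casp8 at the top (17.6 ± 0.41 TPM, n = 2). The ligand gene Tnfsf10 had the lowest mean (0.06 TPM in both libraries). Fasl, another ligand gene, had 0.1 and 0.04 TPM and so lay below Tnfsf10 in replicate 2. Bid, the substrate of caspase 8, stood above Casp8 by 1.65 and 1.57 times. Of the 10 other BH3-only and BCL2-like genes, 7 were detected. Bnip3l, which acts in the clearance of mitochondria from maturing red cells, was the highest at 342 and 328 TPM, and Hrk the lowest at 0.04 and 0.01 TPM. Bmf, a BH3-only gene, was below detection with 0.53 and 0.72 TPM.

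At the outer membrane, the 3 channel genes lay between 137 TPM for Vdac1 and 192 TPM for Vdac3 on average. Vdac2, whose protein holds BAK in the membrane, had 172 and 168 TPM, which was 55.0 and 76.4 times Bak1. The 5 genes that act on the turnover or transcription of the members were all detected, from Fbxw7 (4.29 ± 0.02 TPM, n = 2) to Huwe1 (22.7 ± 0.15), both of which are parts of ligases that can mark MCL1 for degradation. Among the 42 detected pathway genes, Bik, another BH3-only gene, was the 1 that passed 1.2-fold in TPM between the libraries, against 12.1% of all detected genes. It had 1.92 and 2.36 TPM, and the interval of its CPM ratio, 0.55 to 1.21, held 1.

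The tissue label was checked against marker genes of the cells it could hold. The 6 erythroblast and 6 hepatoblast markers were all detected, with medians of 468 and 687 TPM, as were all markers of macrophages (5), megakaryocytes (4), granulocytes (4), endothelium (4) and mesenchyme (4). None of the 4 lymphoid or 3 neural markers was detected, and Cd3e was listed at 0 in both libraries. The 3 heart markers were detected, led by Myl7 at 19.5 and 18.9 TPM, with Tnnt2 at 1.33 and 2.90 TPM and Nppa at 1.12 and 1.70 TPM. The summed markers of replicate 1 over replicate 2 had ratios of 0.97 for erythroblasts, 1.02 for hepatoblasts, 1.14 for megakaryocytes, 0.91 for granulocytes, 1.07 for endothelium, 0.95 for mesenchyme and 0.93 for heart. The CPM ratios of the heart markers were 1.03 for Myl7, 0.48 for Tnnt2 and 0.66 for Nppa. The exact 95% interval left out 1 for Tnnt2 (0.33 to 0.69) and held 1 for Myl7 and Nppa. The part of these cells in the members' ratios between the pools was not tested.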

How the data were processed

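Total RNA-seq of 2 libraries in 1 group was used. Per the deposited header texts, the authors quantified genes and transcripts on mm10 with GENCODE M4; the aligner, the quantifier and the strandedness were not given in these sources. The expected counts are estimated reads made by the authors, not normalized. The deposited TPM, in a main column and in one whose header (pme) was read as a posterior mean, are scaled by effective length and include spike-ins. The percent of a gene's TPM in each transcript was recomputed from TPM and compared with the percent column of the authors. The TPM bounds are the authors' own, and their level is not stated.

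Replicates were compared as TPM ratios after adding 0.1 and as ratios of expected counts scaled to the library total (CPM) with exact 95% Clopper-Pearson intervals (scipy 1.17.1), tested on simulated data. Without molecular identifiers, PCR reads cannot be taken as independent molecules, and the intervals cover counting error only. The floor of 3 reads was far below every member. No p-value was computed. edgeR 4.0.16 (TMM) and DESeq2 1.42.0 (size factors) on rounded expected counts gave other scalings only. Spike-ins held 2.94% and 3.19% of the counts. A table of gene names gave symbols for 42462 unversioned identifiers, and positions, transcript types and coding sequences came from GENCODE M21 on the same assembly. Coding sequences of M21 were translated with Biopython 1.88 to find the core (leucine, any 3 residues, glycine, alanine or serine, aspartate, on the coding strand), and coordinates are 1-based.

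The members, lists and tests were chosen with earlier results of these data known. Named were all 10 members, transcripts with at least 5% of a gene's TPM on average, overlapping genes, the highest and lowest gene of each pathway group and further pathway genes (Bcl2l1, Bcl2l2, Bmf, Apaf1, Casp9, Trp53 and Vdac2); some genes this rule names are not reported here. Outside this rule, Bik, Sesn2, Fasl, Xiap, the Bcl2a1 copies, Bid-203, Ftl1 and the marker genes named were chosen after their values were seen. Likeness of pattern was not ranked, since 2 libraries of 1 group give none.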

Additional observations from a re-analysis of the deposited data

How the results depend on the processing

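All 10 members were detected at limits of 1 and 0.5 TPM, and 7 at 5 TPM. The share of BH3-only genes was 28.4%, 27.0% with coding models only and 28.7% with posterior mean TPM; both moved by more than the small spread between the libraries. With Bcl2l1 added, the guardians, pore formers and BH3-only genes held 45.7%, 34.3% and 19.9%, and without Bax 41.5%, 6.88% and 51.6%, alternatives chosen after seeing the data. The Bax to Bak1 ratio was 46.9 on average and 124 with coding models only, which leave out the decay-typed and the unlisted model of Bak1. Of the members at least 1.2-fold apart between the pools, 2 in TPM, there were 0 with TMM (10.6% of all detected genes), 0 with DESeq2 size factors (10.5%), 0 in expected counts as CPM (10.5%, chosen after seeing the data), 4 at a limit of 1.1-fold (Bcl2, Mcl1, Bak1 and Bbc3, against 31.5%) and 0 at 1.5-fold (2.23%). Centring on the spike-ins gave 2, against 17.9%, but these were Bcl2 and Bak1, and it moved the median log2 ratio of all detected genes to 0.12. Without the detection limit, the share past 1.2-fold was 37.1% of the 23500 genes above 0 TPM in at least 1 library. Leaving out a library only returns the value of the other, so it is no separate check. The class shares of the single libraries were 21.7% and 23.9% for guardians and 50.1% and 47.6% for pore formers. For BH3-only genes they were 28.2% and 28.5%. The Mcl1 to Bcl2 ratio was 27.7 and 36.7, and the Bax to Bak1 ratio was 40.1 and 53.8. No pool difference can be had with a library left out. In estimated reads, the leading model held 79.2% of Bcl2, 83.8% of Bcl2l11 and 96.5% of Bok, each more than in TPM. No paired analysis was possible because there is 1 group. Models resting on under 50 reads, such as Bbc3-203, the short Bak1 model and, in replicate 1, Bcl2l11-202, are limited by depth.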
